A study of Macaca fascicularis with 6 samples.

Results

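Transcripts of cynomolgus monkey oocytes matured in the animal were compared with those of immature oocytes, across all genes of the deposited table. The IVO MII group holds 2 libraries of in vivo matured metaphase II oocytes, and the GV group holds 2 libraries of germinal vesicle oocytes. These are 4 of the 6 libraries of the series. The other 2 are metaphase II oocytes matured in culture. They entered the low-count filter, the scaling and the estimate of the spread, but were not compared here. The labels give every library as wild type, untreated and stripped of surrounding cells. The sources used here do not give how many oocytes or animals went into a library, the animals' age or how the in vivo oocytes were obtained. The p-values therefore measure the spread between these libraries, which may be technical.

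A GV oocyte rests in meiotic prophase, its nuclear envelope still closed, and holds a large store of messenger RNA. On maturation the nuclear envelope breaks down, the first polar body is extruded and the oocyte arrests again at metaphase of the second division, ready for fertilization. Transcription is largely silent over this interval, and stored transcripts are known to gain poly(A) tails and be translated, or to lose them and be degraded, on different schedules. Here cDNA was primed on the poly(A) tail, so a value counts tailed RNA. Tail length and amount of RNA were not measured apart, and a value in CPM (counts scaled to the library's total after TMM normalization) is relative to the rest of its library, not an amount per oocyte. In such bulk libraries, fewer cells of a type and less RNA per cell cannot be told apart.

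The GV libraries held 31421282 and 32777458 counts and the IVO MII libraries 27707021 and 29354497, over 28164 genes. At least 1 count fell on 20070 and 20082 genes in the GV libraries, and on 18264 and 18313 in the IVO MII libraries. Log2 CPM correlated at 0.982 between the GV libraries and 0.975 between the IVO MII libraries, and at 0.847 to 0.876 between a GV and an IVO MII library. The landmark oocyte genes summed to 69892 and 84506 CPM in GV and 58629 and 63594 CPM in IVO MII. Some somatic markers had no count in any of the 4 libraries: FOXL2, AMHR2, INHA and NR5A1 (granulosa), CYP17A1 (theca) and HBB (red cells). Of 24 cumulus and granulosa markers, 17 stayed under 1 CPM in all 4. Others did not, and that whole list summed to 218 and 198 CPM in GV and to 645 and 752 CPM in IVO MII. Theca, stroma and endothelium markers summed to 450 and 485 CPM in GV and to 287 and 258 CPM in IVO MII.

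Levels differed between GV and IVO MII for 58.5% of the genes tested. Of 15815 genes tested, 4442 (28.1%) were higher in IVO MII and 4816 (30.5%) were lower, at a Benjamini-Hochberg adjusted p under 0.05 in edgeR's quasi-likelihood test, which is the test behind every adjusted p below. Both IVO MII libraries lay above both GV libraries for 6034 genes (38.2%) and below them for 6654 genes (42.1%). Counts of genes that rose and fell were close, but the sizes were not. A fold change over 4 was reached by 640 of the genes that rose and by 2449 of those that fell, and one over 16 by 16 and by 373. The median log2 fold change was 1.39 among the genes that rose, -2.02 among those that fell and -0.07 over all genes tested.

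**Figure D1:**
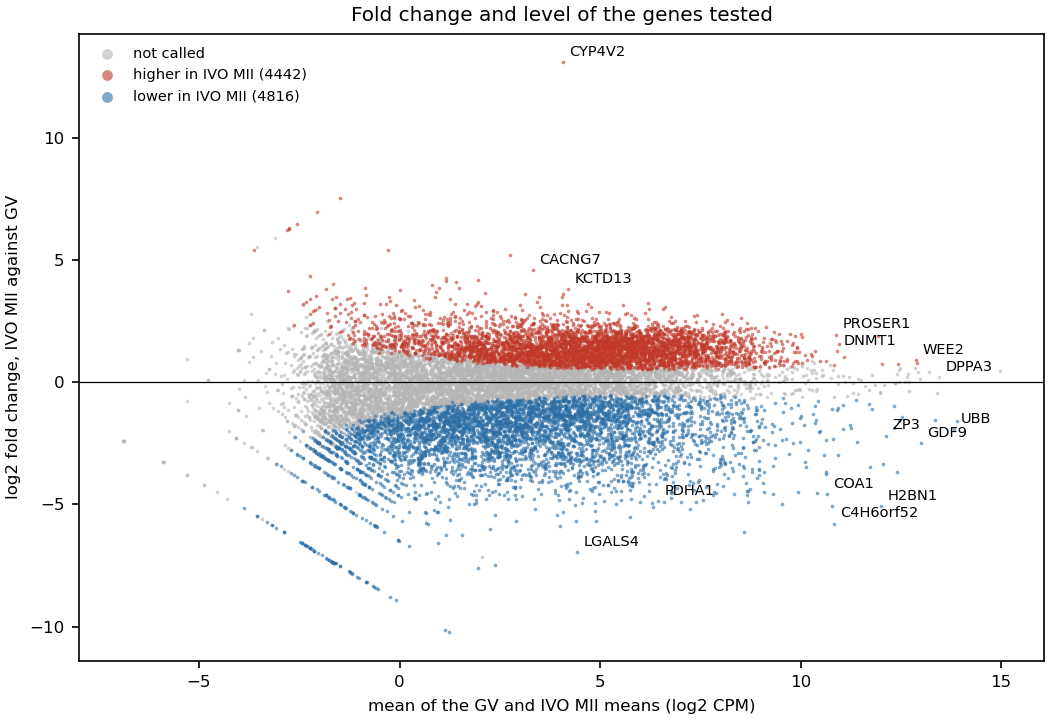
Each point is a gene tested, placed by the log2 of the mean of its GV and IVO MII levels (CPM, x axis) and its log2 fold change, IVO MII against GV (y axis). Red points are the 4442 genes called higher, blue points the 4816 called lower and grey points those not called, and the blue cloud reaches farther from 0 than the red one. The fold change drawn for CYP4V2 and other genes with no count in a group depends on a small added prior count and is not a measured size. Genes with no count in any of the 4 libraries are not drawn.

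The genes called in either direction held a large part of the counts. The genes called lower held 44.3% and 48.4% of the counts of the GV libraries and 11.9% and 13.9% of those of the IVO MII libraries. Those called higher went from 19.5% and 17.7% to 47.3% and 47.6%. The calls came from these same libraries, so the direction of both shifts was fixed and only their size is described. Each library sums to a fixed total, so a rise in share need not be a rise in amount. The most abundant transcripts per kilobase of exon in GV were UBB (ubiquitin) at 15770 CPM per kb, CKS1B (a subunit of cyclin-dependent kinases) at 15266 and H2BN1 (an H2B histone) at 9587. In IVO MII, CKS1B led with 11358 CPM per kb, followed by DPPA3 (a maternal chromatin factor) at 8783 and BCL2L10 (a survival factor of the BCL2 family) at 7664.

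The largest losses in CPM included C4H6orf52, H2BN1 and COA1. C4H6orf52, an uncharacterized open reading frame (macFas5 chr4:160166478-160190035), was at 3639 and 3550 CPM in GV and at 62.9 and 67.3 CPM in IVO MII, a 55.2-fold fall (log2 fold change -5.79 ± 0.29 SE, adjusted p = 5.47e-07). H2BN1 (chr16:29263704-29287112) fell from 8235 and 7813 CPM to 230 and 249 CPM, or 33.5-fold (log2 -5.06 ± 0.31, adjusted p = 5.47e-07). COA1, a mitochondrial factor for respiratory chain assembly (chr3:76647982-76799866), went from 2899 and 3311 CPM to 113 and 149 CPM, a 23.8-fold fall (log2 -4.57 ± 0.31, adjusted p = 8.99e-07). In each of these genes the libraries of a group lay within a narrow band. Only genes whose groups did not overlap were ranked here. IAH1, an esterase, dropped 10.3-fold from 7111 and 8382 CPM to 754 and 753 CPM (adjusted p = 5.43e-06). UBB remained abundant, at 24295 and 21817 CPM in GV and 6391 and 5823 CPM in IVO MII (3.78-fold lower, adjusted p = 0.0016).

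Genes with a symbol, at least 10 CPM in GV, an adjusted p under 0.05 and no overlap between the groups were ranked by fold. The steepest fall was that of LGALS4, a galectin (chr19:39278395-39289578). Its level was 41.4 and 44.3 CPM in GV and 0.309 and 0.374 CPM in IVO MII, a 125-fold difference (log2 -6.95 ± 0.35, adjusted p = 5.47e-07). STARD5, a sterol transfer protein, fell 59.3-fold, from 31.9 and 31.6 CPM to 0.425 and 0.645 CPM. ATPIF1, the inhibitor of mitochondrial ATP synthase, fell 46.0-fold from 99.0 and 110 CPM to 2.20 and 2.34 CPM. These values leave little of the transcripts in IVO MII. The V-ATPase subunit ATP6V1E1 fell 36.5-fold (317 and 268 CPM to 8.31 and 7.71 CPM) and the GTPase DRG1 34.3-fold (138 and 174 CPM to 4.91 and 4.18 CPM). The fatty acid binding protein gene FABP5 fell 38.2-fold and the co-chaperone gene DNAJC5G 43.7-fold. In 3 further genes of this set a library set the size: KRBOX1 fell by 5.70 on the log2 scale, by 8.59 without IVO MII 1 and by 4.74 without IVO MII 2; SSSCA1 by 5.67 and by 6.46 without IVO MII 2; AVPI1 by 5.21 and by 4.35 without GV 2.

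CYP4V2, a fatty acid hydroxylase (LOC102141321, chr5:185606712-185627744), had no count in either GV library and 37.0 and 30.6 CPM in IVO MII, 1858 counts in all. Against a floor of 3 counts per library it was at least 332-fold higher (adjusted p = 8.99e-07). Other rises were smaller. CACNG7, a calcium channel and AMPA receptor subunit (chr19:54751961-54781572), rose 24.2-fold from 0.953 and 0.642 CPM to 19.0 and 19.6 CPM (log2 4.59 ± 0.46, adjusted p = 1.14e-05). KCTD13, an adaptor of cullin ubiquitin ligases (chr20:28394784-28415377), rose 13.95-fold from 2.62 and 2.30 CPM to 30.3 and 38.3 CPM (log2 3.80 ± 0.46, adjusted p = 4.39e-05). The homeobox gene SIX2 rose 12.1-fold and the phosphatase gene INPP5E 11.2-fold. The netrin receptor UNC5A rose 9.31-fold, the cytokine TNFSF12 9.15-fold, the transmembrane gene LRIG3 8.98-fold, SAFB2 8.89-fold, CPNE2 8.83-fold and the poly(A) binding PABPN1L 8.79-fold.

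**Figure D2:**
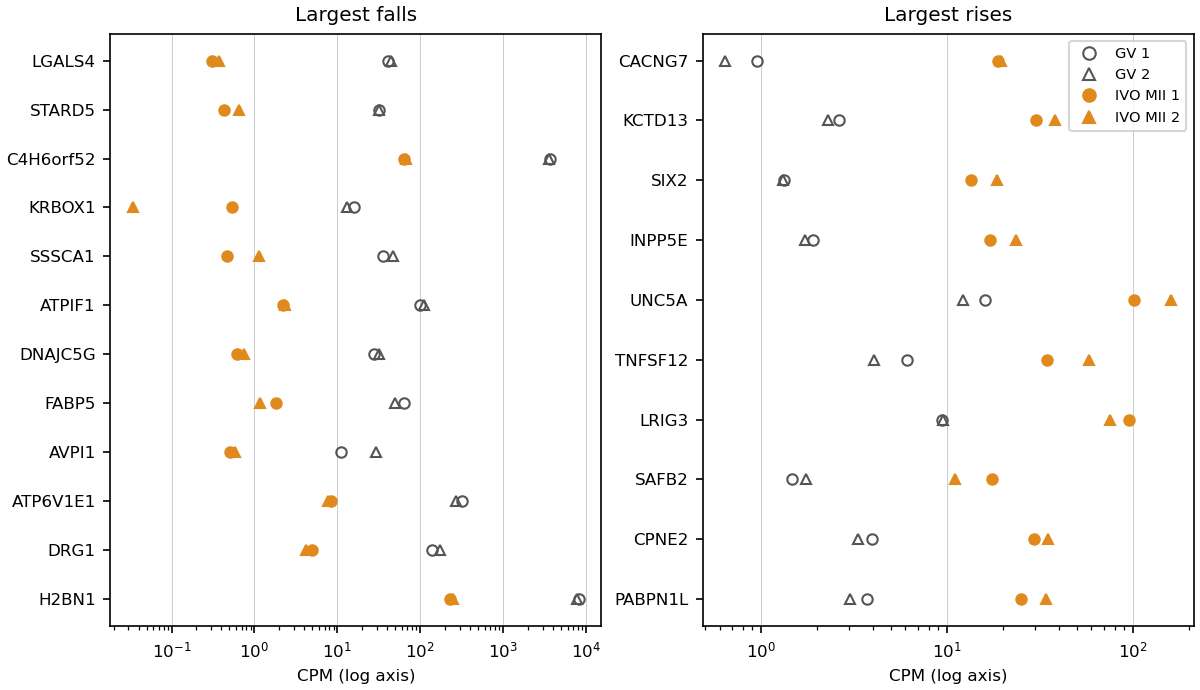
CPM on a log axis in each library for the 12 genes with the largest fall (left) and 10 of the 12 with the largest rise (right; among those left out is CYP4V2, whose GV value of 0 has no place on a log axis). Open grey symbols are GV and filled orange symbols IVO MII, circles replicate 1 and triangles replicate 2. Only genes with the GV and IVO MII libraries apart could be chosen, so the lack of overlap follows from the choice. KRBOX1 shows the widest gap within a group.

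The largest gains in CPM included PROSER1, EDRF1, GCC2 and DNMT1. PROSER1, a proline and serine rich protein (chr17:18303183-18333451), rose 3.85-fold from 987 and 580 CPM to 3406 and 2622 CPM (log2 1.94 ± 0.31, adjusted p = 0.000259). EDRF1, a factor of erythroid differentiation, rose 3.96-fold from 482 and 354 CPM to 1879 and 1428 CPM, EPSTI1 rose 3.55-fold from 444 and 481 CPM to 1578 and 1703 CPM, and the golgin GCC2 2.96-fold from 1185 and 806 CPM to 3547 and 2351 CPM. DNMT1, the maintenance DNA methyltransferase, rose 2.40-fold from 1311 and 952 CPM to 3361 and 2074 CPM (adjusted p = 0.00381, and 0.0514 without GV 2). WEE2, the oocyte kinase that inhibits CDK1, was at 4646 and 5911 CPM in GV and at 8630 and 10939 CPM in IVO MII (adjusted p = 0.019). Its call ended when GV 1, GV 2 or IVO MII 2 was left out (adjusted p = 0.162, 0.0524 and 0.15). The calls of BCL2L10, ACCSL and RBBP7, which rose 1.65- to 1.72-fold, ended without any 1 of the 4 libraries, and that of PDK1 (2.02-fold) without GV 1 or IVO MII 2.

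Most transcripts by which an oocyte is known were lower after maturation. Of 38 landmark oocyte genes tested, 23 fell and 9 rose, with a median log2 fold change of -1.08. The count that rose was 5 without GV 1, GV 2 or IVO MII 2, and the median -1.31 without GV 1. GDF9, the growth factor that oocytes secrete to the surrounding cumulus cells (chr6:131852445-131857738), fell 5.68-fold from 13613 and 14224 CPM to 2259 and 2644 CPM (log2 -2.51 ± 0.30, adjusted p = 3.88e-05). Its partner BMP15 was at 3361 and 3076 CPM in GV and at 1887 and 2706 CPM in IVO MII, a difference that did not pass (log2 -0.49 ± 0.31, adjusted p = 0.199). The oocyte transcription factors FIGLA (71.5 and 109 CPM to 3.63 and 7.10 CPM, 16.8-fold) and LHX8 (3.33-fold) fell. NOBOX, from the same group of regulators, fell 1.90-fold, but its call ended without GV 1, GV 2 or IVO MII 2.

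Genes of the egg surface were mostly lower. Of the zona pellucida genes, whose products form the egg coat, ZP3 fell 4.56-fold (5239 and 9450 CPM to 1161 and 2058 CPM), ZP4 3.79-fold (3114 and 3617 CPM to 773 and 1005 CPM) and ZP2 2.23-fold (2502 and 2814 CPM to 1144 and 1244 CPM). ZP1, at 30.3 and 37.1 CPM against 46.3 and 72.2 CPM, did not pass (adjusted p = 0.0565). IZUMO1R, the sperm receptor also called JUNO, fell 14.2-fold from 181 and 236 CPM to 13.2 and 16.2 CPM (log2 -3.82 ± 0.30, adjusted p = 2.25e-06). The fusion tetraspanin CD9 fell 3.00-fold. ASTL, the cortical granule protease that cleaves the egg coat, fell 5.13-fold. Thus 6 of these 7 genes fell, and ZP1 alone had both IVO MII libraries above both GV libraries.

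Oocyte genes that rose included meiotic arrest and germline genes. FBXO43, the EMI2 inhibitor that holds the anaphase-promoting complex at metaphase II, rose 4.84-fold from 10.3 and 8.32 CPM to 45.5 and 44.8 CPM (log2 2.27 ± 0.23, adjusted p = 1.34e-05). The receptor KIT rose 2.23-fold and the zinc finger gene BNC1 1.92-fold. The oocyte linker histone H1-8 rose 2.84-fold from 322 and 601 CPM to 879 and 1737 CPM, but its call ended without GV 1 or IVO MII 2. MOS, the kinase that starts the MAP kinase cascade in oocytes, was at 126 and 174 CPM in GV and at 179 and 546 CPM in IVO MII. It was called higher (adjusted p = 0.0198), yet IVO MII 1 stood close to GV, and the log2 fold change of 1.27 was 0.25 without IVO MII 2 (adjusted p = 0.509) and 1.86 without IVO MII 1; the call also ended without GV 1. The calls of the germline RNA binders DAZL (1.67-fold) and DDX4 (1.78-fold) ended without GV 2 or IVO MII 1. DPPA3, KPNA7 (the oocyte importin), BTG4 (an adaptor of mRNA deadenylation) and SOHLH2 were not called, and the GV and IVO MII libraries of DPPA3 and KPNA7 overlapped.

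The subcortical maternal complex, a protein assembly under the egg membrane that early embryos need, and the oocyte NLRP genes were largely lower. Of 14 genes tested 9 fell and 1 rose, with a median log2 fold change of -1.15. NLRP5, also called MATER, fell 10.1-fold from 435 and 575 CPM to 41.8 and 57.9 CPM (log2 -3.34 ± 0.26, adjusted p = 2.41e-06). PADI6 fell 6.35-fold from 544 and 1179 CPM to 161 and 111 CPM (log2 -2.67, and -2.004 without GV 2). TLE6 fell 5.81-fold from 152 and 262 CPM to 34.0 and 37.4 CPM, and OOEP 3.70-fold from 3262 and 4434 CPM to 967 and 1111 CPM. NLRP7 fell 3.27-fold, NLRP2 3.21-fold and NLRP14 2.45-fold. Calls were less firm for KHDC3L (2.00-fold lower, ended without GV 2), NLRP11 (1.68-fold lower, ended without GV 1, GV 2 or IVO MII 1) and ZBED3 (1.79-fold higher, ended without GV 2 or IVO MII 1). NLRP4, NLRP8, NLRP9 and NLRP13 were not called. NLRP4 stayed among the abundant transcripts, at 4099 and 5057 CPM in GV and 6694 and 7052 CPM in IVO MII (adjusted p = 0.106).

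**Figure D3:**
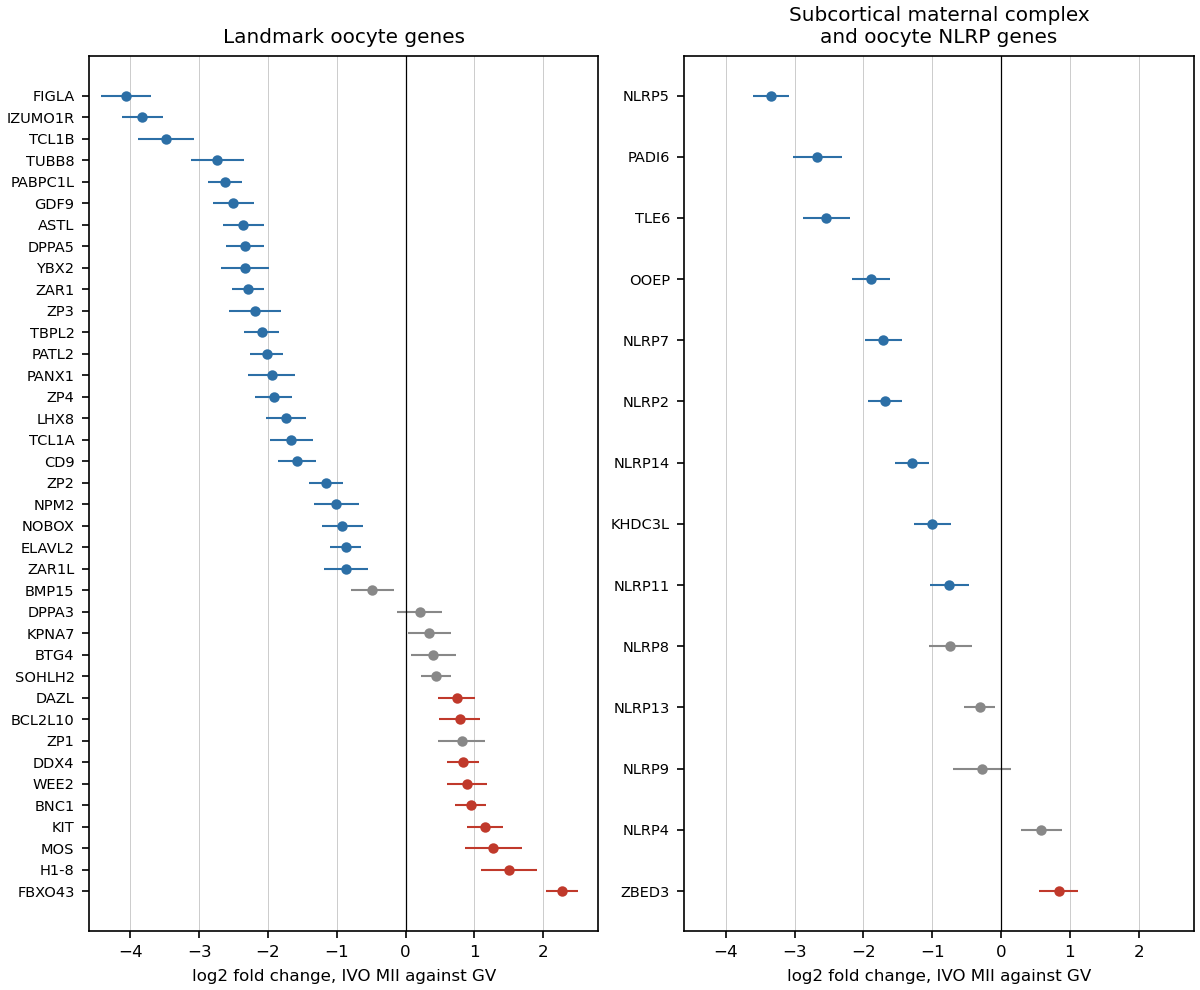
Log2 fold change, IVO MII against GV (x axis), of the 38 landmark oocyte genes (left) and the 14 subcortical maternal complex and NLRP genes (right) that were tested, ordered by value. Bars are 1 SE of the edgeR fit with 2 libraries per group; blue genes were called lower, red higher and grey not called. FIGLA (-4.06), IZUMO1R (-3.82) and NLRP5 (-3.34) are at the low end and FBXO43 (2.27) at the high end.

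Nuclear genes for mitochondrial energy production were mostly lower. Of 45 complex I (NDUF) genes tested 33 fell and 1 rose (median log2 -2.56), and of 42 subunit genes of complexes II to V 30 fell and 4 rose (median -2.38; -2.03 and 1 risen without GV 2). NDUFB2 fell 10.97-fold from 433 and 486 CPM to 37.4 and 46.5 CPM, NDUFA9 22.0-fold from 38.7 and 32.6 CPM to 1.74 and 1.49 CPM, and COX7B 13.8-fold from 206 and 172 CPM to 13.6 and 13.8 CPM. The complex III gene UQCRC2 went the other way, from 57.1 and 59.9 CPM to 99.3 and 108 CPM (1.77-fold, adjusted p = 0.00474), as did the complex II genes SDHC (call ended without GV 2) and SDHD (ended without GV 2). NDUFB1, the complex I gene that rose (1.62-fold), lost its call without GV 1, GV 2 or IVO MII 1. Mitochondrial ribosomal protein genes shared the direction: 32 of 45 large subunit genes fell and 7 rose (median -1.97, and -2.50 without IVO MII 2), and 22 of 28 small subunit genes fell and 0 rose (median -1.54). MRPS11 fell 27.3-fold from 91.3 and 118 CPM to 4.02 and 3.67 CPM, while MRPL44 rose 2.42-fold from 178 and 244 CPM to 443 and 580 CPM. In the small subunit list 0 genes were also higher at an unadjusted p under 0.05 in edgeR, 0 by DESeq2 and 0 by limma-voom, and 2 were higher under a correction for gene length given below.

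Mitochondrial import genes were mostly lower too, and genes of substrate supply were lower more often than higher. Of 20 TIMM and TOMM import genes 13 fell and 3 rose. TIMM50, a receptor of the inner membrane translocase, fell 27.7-fold from 10.2 and 18.5 CPM to 0.425 and 0.611 CPM, whereas TIMM21, of the same translocase, rose 3.78-fold from 69.3 and 73.8 CPM to 279 and 262 CPM. PDHA1, the catalytic subunit of pyruvate dehydrogenase, fell 29.1-fold from 141 and 194 CPM to 5.45 and 6.11 CPM (log2 -4.86 ± 0.27, adjusted p = 5.47e-07). About 27.9% of its exon bases also lie in exons of MAP3K15, and counting took no account of strand. Both pyruvate carrier genes fell, MPC1 11.4-fold and MPC2 11.2-fold. In the whole list of pyruvate and tricarboxylic acid cycle genes, 15 of 36 fell and 6 rose (median log2 -0.54). HADHA, of the trifunctional protein of fatty acid oxidation, was the most abundant of its list and fell 22.3-fold, from 1775 and 1973 CPM to 63.0 and 105 CPM; 12 of the 23 fatty acid oxidation genes fell and 1, ACSL3, rose (2 without IVO MII 1 or either library matured in culture). Glycolysis and pentose phosphate genes had 10 of 22 lower (GAPDH 9.38-fold, ENO1 10.9-fold) and 4 higher (TALDO1 2.61-fold, RPIA 4.29-fold). Their median log2 fold change was -1.16, and -0.49 with a filter of at least 10 CPM in 2 libraries.

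Antioxidant genes moved in both directions. Of 31 tested 17 fell and 6 rose (median -1.68). GSTM3, a glutathione transferase and in GV the most abundant of those named, fell 12.8-fold from 2838 and 3026 CPM to 221 and 236 CPM. The cytosolic peroxiredoxins PRDX1 (9.95-fold, 481 and 440 CPM to 51.5 and 41.0 CPM) and PRDX2 (18.0-fold, 156 and 165 CPM to 8.04 and 9.81 CPM) fell. The mitochondrial PRDX3 rose 2.70-fold from 144 and 159 CPM to 391.7 and 428 CPM, and the mitochondrial superoxide dismutase SOD2 rose 2.22-fold from 259 and 270 CPM to 561 and 611 CPM. GSR, which regenerates glutathione, rose 3.18-fold and NFE2L2, the regulator of this response, 3.58-fold. In these 7 genes, which were picked by adjusted p, the GV and IVO MII libraries did not overlap. Over all genes tested this held for 38.2% in the higher and 42.1% in the lower direction.

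Protein turnover genes did not change as a group in 1 direction. Of 35 proteasome (PSM) genes 20 fell and 12 rose (6 without GV 1). The 20S core subunits PSMB1 (21.7-fold lower, 636 and 937 CPM to 30.6 and 42.0 CPM) and PSMB7 (11.6-fold lower) went opposite to PSMA5 (2.65-fold higher, 400 and 423 CPM to 1233 and 944 CPM). Among the deubiquitinase (USP) genes, which remove ubiquitin, 29 of 47 rose and 2 fell (median 0.92), with USP25 up 4.09-fold and USP13 3.73-fold; of the fallen pair, USP50 fell 7.12-fold and USP30 lost its call without any 1 of the 4 libraries. Of 33 ubiquitin conjugating (UBE2) genes 12 were higher (36.4%) and 13 lower (39.4%), against 28.1% and 30.5% of all genes tested. FBXW12, an F-box gene, was the member of the F-box list with the largest fall among those named, from 2175 and 3774 CPM to 168 and 269 CPM (13.6-fold). That list as a whole had 17 of 54 higher (31.5%), near the 28.1% of all genes tested. It had 10 lower (18.5%, against 30.5%), and fewer without GV 2.

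Cohesin and chromatin enzyme genes were higher more often than lower. Of 32 cohesin, condensin and segregation genes 21 rose and 4 fell (median 1.35). STAG1 rose 4.11-fold from 36.8 and 26.3 CPM to 142 and 117 CPM, PDS5B 4.10-fold, SMC6 3.87-fold and the cohesin kleisin RAD21 2.79-fold. Of the 4 that fell, CDCA5 (sororin) kept its call, while MEIKIN lost it without GV 2, NCAPH without IVO MII 2 and STAG2, at under 1 CPM in every library, without any 1 of the 4. Among 65 histone modifying and remodelling enzymes 39 rose and 9 fell (median 1.03). KMT2D, a histone methyltransferase, rose 5.04-fold, the bromodomain gene BRD2 4.37-fold, ARID2 4.34-fold and the demethylase KDM3A 3.89-fold from 40.8 and 31.8 CPM to 153 and 129 CPM, while KAT7 and HDAC2 fell. Of 17 DNA methylation genes 7 rose and 1, DNMT3A, fell (2 without either library matured in culture). TET3, the oxidase of 5-methylcytosine in the early embryo, rose 4.56-fold from 36.3 and 23.2 CPM to 135 and 137 CPM. Of 35 histone chaperone and variant genes 15 rose and 7 fell, and of 34 kinetochore genes 14 rose and 7 fell (median 0.32). The histone chaperone ASF1B rose 7.99-fold from 17.0 and 16.3 CPM to 127 and 139 CPM, and ATRX 4.49-fold from 174 and 124 CPM to 772 and 567 CPM.

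Of 31 genes around CDK1, which drives the cell cycle, 41.9% rose (13) and 29.03% fell (9), the latter near the 30.5% of all genes tested. CDK1 itself, the kinase of entry into division, fell 6.19-fold from 171 and 138 CPM to 18.2 and 31.8 CPM (log2 -2.63 ± 0.30, adjusted p = 3e-05). Its phosphatase CDC25C fell 2.37-fold and CDC25B 5.46-fold (log2 -2.44, and -3.09 without IVO MII 2). CDC25A rose 4.11-fold from 18.7 and 13.5 CPM to 83.6 and 48.6 CPM, and the cyclins CCNA2 (3.46-fold) and CCNE1 (3.07-fold) rose. Of 34 spindle checkpoint and anaphase-promoting complex genes 15 rose and 9 fell (26.5%, also near that share): ANAPC10 and CDC27 rose, ANAPC13 fell 9.14-fold and MAD2L1BP 4.50-fold. Among the Aurora, Polo and passenger genes BIRC5 (survivin) fell 3.90-fold, its partner in the passenger complex CDCA8 (borealin) rose 3.84-fold, PLK1 fell 2.17-fold and TPX2 rose 3.25-fold. NEK7 rose 7.08-fold from 13.1 and 12.1 CPM to 93.1 and 85.2 CPM. Kinesin motor genes were mostly higher, with 19 of 33 up and 4 down, and tubulin genes mostly lower, with 10 of 19 down (5 without GV 2) and 2 up; TUBB8, the oocyte beta-tubulin, fell from 210 and 511 CPM to 42.3 and 65.6 CPM (log2 -2.74, and -1.96 without GV 2), and TUBA4A fell 21.7-fold.

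RNA binding, splicing and decay genes moved in both directions. Of 21 HNRNP genes, which bind nuclear RNA, 15 rose and 1 fell (median 1.30, 0.95 without GV 2). HNRNPR rose 5.54-fold from 8.99 and 8.76 CPM to 48.5 and 49.8 CPM. The gene that fell, HNRNPLL, lost its call without IVO MII 1 and fell by 2.40 on the log2 scale without IVO MII 2, against 1.59. Splicing factor genes had 27 of 55 higher and 13 lower: SRSF11 rose 3.91-fold and SF3B2 3.33-fold, while SF3B5 fell 32.5-fold from 39.9 and 40.5 CPM to 1.35 and 1.12 CPM and PRPF18 11.99-fold from 1040 and 800 CPM to 89.2 and 64.2 CPM. Of 22 deadenylation genes, whose products shorten poly(A) tails, 8 rose (36.4%) and 5 fell (22.7%). The shares over all genes tested were 28.1% and 30.5%. The CCR4-NOT nucleases CNOT6L 4.13-fold from 93.3 and 67.0 CPM to 363 and 298 CPM, CNOT7 3.24-fold, CNOT8 2.24-fold and CNOT6 1.79-fold rose (the last call ended without GV 2), as did PAN2 3.34-fold and its partner PAN3 4.23-fold. The scaffold CNOT1 fell 2.12-fold, and PNLDC1, a nuclease of the PARN family, fell 6.01-fold from 89.3 and 89.9 CPM to 15.7 and 14.1 CPM. The exonucleases XRN1 (4.67-fold) and XRN2 (3.32-fold) rose, and LSM3 (9.71-fold) and LSM6 (6.03-fold), of the ring that promotes decapping, fell.

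Of 46 genes that bind stored mRNA or set its poly(A) tail, 25 rose and 11 fell (median 0.84; 1.09 without GV 1). CPEB1, which binds the cytoplasmic polyadenylation element, rose 2.35-fold from 327 and 330 CPM to 717 and 827 CPM, CPEB2 4.58-fold and CPEB4 3.65-fold. ZAR1, which stores maternal mRNA in the oocyte, fell 4.89-fold from 79.1 and 75.0 CPM to 14.02 and 17.5 CPM, and the Y-box protein YBX2 fell 5.04-fold. PATL2, a repressor of translation in oocytes, fell 4.05-fold. Initiation factor (EIF) genes had 12 of 48 higher (25.0%, near the 28.1% of all genes tested) and 20 lower (41.7%, against 30.5%). Among the latter was EIF6, down 15.98-fold from 307 and 364 CPM to 16.4 and 25.5 CPM. Cytosolic ribosomal protein genes had 7 of 52 higher and 21 lower in the large subunit (median -0.62). In the small subunit 8 of 31 went each way (median 0.17). That is 25.8%, near the 28.1% and 30.5% of all genes tested. With a correction for gene length the large subunit had 17 higher and 9 lower (median 0.30), and the small subunit 20 higher and 3 lower (median 0.98). The large subunit median changed sign under it, and the small subunit median was -0.15 without IVO MII 1, where 2 of its genes rose (4 without GV 1, 3 without GV 2).

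**Figure D4:**
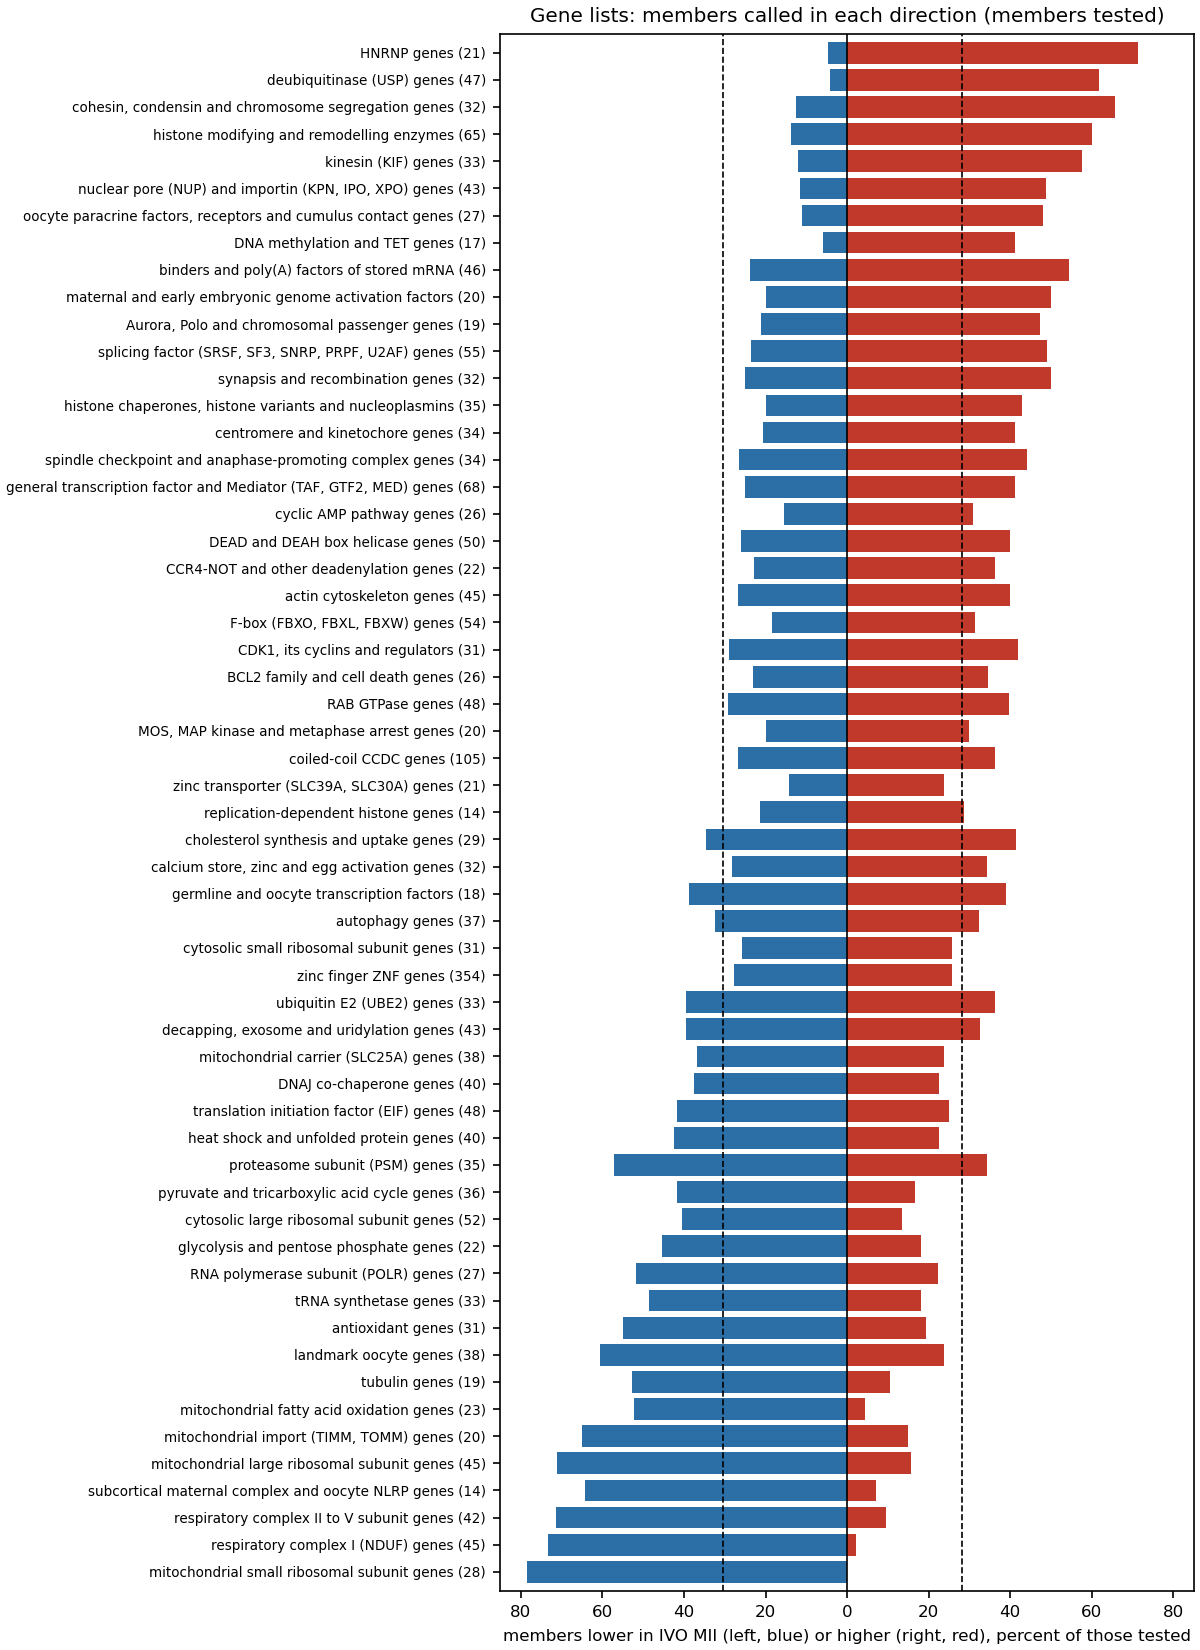
Share of tested members called lower (blue, to the left) and higher (red, to the right) in IVO MII, in percent, for the 57 gene lists with at least 14 members tested (number in brackets), ordered by the difference of the shares. Dashed lines mark the shares over all 15815 genes, 30.5% lower and 28.1% higher. HNRNP, USP and cohesin genes are at the top and mitochondrial ribosomal and respiratory chain genes at the bottom.

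Paralog pairs were compared gene by gene. Of 25 pairs with both genes tested, 6 had a gene higher and the other lower, 5 had both higher, 2 both lower, 11 had 1 called and 1 had none, where 28.1% of all genes tested were higher and 30.5% lower. PABPC1L, the poly(A) binding protein of oocytes, fell 6.18-fold from 27.4 and 29.9 CPM to 4.21 and 5.06 CPM, and the general PABPC1 rose 3.36-fold from 16.4 and 11.1 CPM to 52.4 and 40.04 CPM. CDC20, the activator of the anaphase-promoting complex in division, rose 3.56-fold from 65.4 and 109 CPM to 246 and 373 CPM, while FZR1, its relative in interphase and prophase arrest, fell 4.88-fold from 2.59 and 2.64 CPM to 0.425 and 0.645 CPM. CCNB2 fell 3.95-fold from 690 and 675 CPM to 178 and 167 CPM, while CCNB1 rose 1.74-fold from 729 and 712 CPM to 1316 and 1185 CPM, a call that ended without GV 1, GV 2 or IVO MII 1. At 407 and 444 CPM per kb the B cyclins were near each other in GV, against 706 for CCNB1 and 112 for CCNB2 in IVO MII.

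The other opposite pairs were DNMT1 higher with DNMT3A lower (2.33-fold, 32.4 and 28.5 CPM to 14.1 and 12.1 CPM; DNMT1's adjusted p was 0.0514 without GV 2), ELAVL1 higher with ELAVL2 lower, and AURKC higher with AURKB lower. The oocyte form ELAVL2 went from 166 and 211 CPM to 93.2 and 113 CPM, a call that ended without GV 2, and ELAVL1 from 34.5 and 33.2 CPM to 72.6 and 94.6 CPM. AURKC, the Aurora kinase of meiosis, went from 344 and 404 CPM to 618 and 541 CPM, a call that ended without any 1 of the 4 libraries; that of AURKB ended without GV 2 or IVO MII 1. KPNA2, an importin, fell 6.78-fold from 2172 and 1898 CPM to 288 and 312 CPM beside an uncalled KPNA7. ACTG1 fell 4.15-fold from 2121 and 2439 CPM to 561 and 537 CPM, whereas ACTB was at 1218 and 1020 CPM in GV and 1239 and 957 CPM in IVO MII. Reads of close copies such as the actins, tubulins, ribosomal protein genes and HNRNPA1 may be shared between them and their pseudogenes, so their separate values are uncertain.

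Direction went with gene length. Among the shortest 5th of the genes tested (152 to 1442 bases of exon), 16.3% rose and 45.0% fell, and among the longest 5th (5743 to 115326 bases), 39.9% rose and 16.3% fell. The median log2 fold change went from -0.86 to 0.49 from the shortest to the longest group, and Spearman's rho between length and fold change was 0.26 across 15815 genes, a description only since genes share libraries. The lists that fell most hold short genes: median exon length was 957 bases for complex I, 894 for complexes II to V and 1180 for the mitochondrial large subunit, against 2974 over all genes tested. With a fit that takes out a smooth trend of counts on length, 32 of 45 complex I genes remained lower by count (7 higher, median -1.70), 28 of 42 of complexes II to V (median -1.65) and 26 of 45 of the mitochondrial large subunit (median -1.26). The antioxidant median became -0.75 and the proteasome median -0.71. The long-gene lists changed less: cohesin genes (median length 5250 bases) had 21 higher and 3 lower with a median of 1.20, and chromatin genes (6513 bases) had 33 higher and 11 lower with a median of 0.83. The USP median became 0.65.

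**Figure D5:**
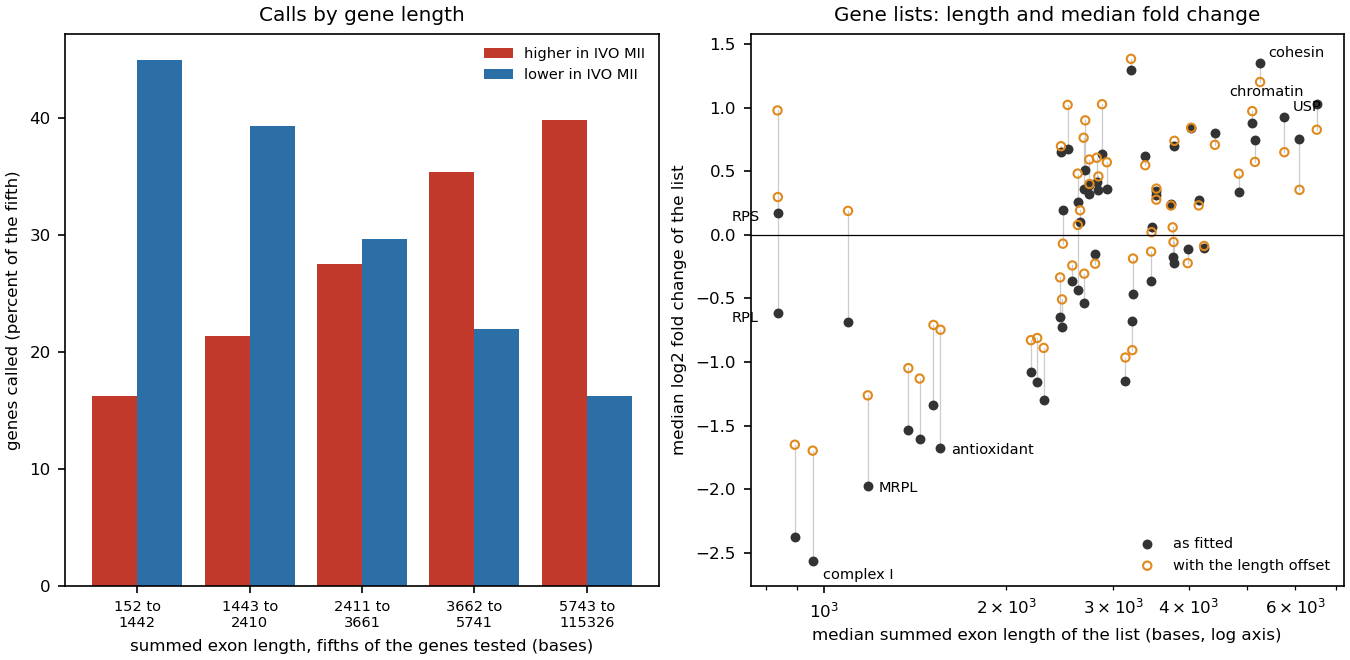
Left, percent of genes called higher (red) and lower (blue) in 5 equal groups of genes by summed exon length (bases). Right, each of the 57 lists by its median exon length (log axis, bases) and its median log2 fold change as fitted (black) and with the length trend taken out (orange, joined by a grey line). The share called lower goes down from 45.0% to 16.3% from the shortest to the longest group, and the respiratory and mitochondrial ribosomal lists remain under 0 with the trend taken out.

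Markers of other ovarian cells were compared between the groups as well. Cumulus and granulosa markers summed to 218 and 198 CPM in GV and to 645 and 752 CPM in IVO MII. Most of the sum was GATM, a creatine synthesis enzyme, at 177 and 162 CPM in GV and 607 and 698 CPM in IVO MII (adjusted p = 3.52e-05). HAS2, which makes the hyaluronan of the expanding cumulus, was at 5.07 and 4.90 CPM in GV and at 12.7 and 31.6 CPM in IVO MII (adjusted p = 0.000486; log2 2.15, and 1.35 without IVO MII 2). Of the 8 of these 24 markers that were tested 2 rose and 1 fell, TNFAIP6, whose call ended without GV 1, IVO MII 1 or IVO MII 2. Theca, stroma and endothelial markers summed to 450 and 485 CPM in GV and 287 and 258 CPM in IVO MII, of which VWF made 288 and 337 CPM in GV and 41.8 and 46.0 CPM in IVO MII. Blood and immune markers summed to 35.4 and 29.4 CPM in GV and 43.5 and 47.4 CPM in IVO MII. Of the 21 markers present, 18 stayed under 1 CPM in all 4 libraries. Of the 5 tested 2 fell and 1 rose, KIT, which is also given above as an oocyte gene that rose. The sum therefore includes an oocyte gene. What part such cells have in the differences above was not tested.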

How the data were processed

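Full-length cDNA was made from stripped oocytes by poly(A) priming, template switching and PCR, and sequenced as paired 100-base reads, per the labels' protocols, which name no spike-in or molecular identifier. Per the file headers, the deposited values are raw counts per gene from featureCounts 2.0.1 (paired mode, exons summed by gene, macFas5 RefSeq annotation, no strand option), with the exon length of each gene beside them. The submitters' processing notes name fastp, FastQC, Bowtie2, SAMtools and featureCounts. Bowtie2 does not split reads over introns, which can lower the counts of genes with short exons.

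Counts of all 6 libraries were fitted in edgeR 4.0.16 (R 4.3.3) with TMM factors, the default low-count filter by group and a robust quasi-likelihood fit, and IVO MII was tested against GV at an adjusted p under 0.05. SE is the size of the log2 fold change over the square root of the F statistic. CPM are counts over the library total times its TMM factor, with 0.101 to 0.116 CPM as the level of 3 counts. A fold is the ratio of mean CPM with n = 2 libraries per group, and "Without" a library means refitting without it. The fit was also run on simulated counts in which few genes changed, equally up and down. That run could not test the scaling or the error rate where 58.5% of genes are called.

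Genes were chosen for naming as follows. Among called genes with a symbol whose groups did not overlap, the 12 largest folds per direction (10 CPM or more where higher) were taken. So were the 10 largest differences in CPM per direction. To these were added up to 4 genes per direction from each of 60 lists by adjusted p. All landmark oocyte and maternal complex genes and 32 paralog pairs were also taken. A few of these genes are not reported here. Members and lists were chosen with earlier results of these data known. Symbols for 721 of 11294 LOC identifiers came from a RefSeq table of assembly T2T-MFA8v1.1, used for names only. Alternatives were DESeq2 1.42.0, limma-voom (limma 3.58.1), other scaling, filters and designs, and a length offset.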

Additional observations from a re-analysis of the deposited data

How the results depend on the processing

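No gene called in the comparison was called in the opposite direction under any of the 17 alternative settings. DESeq2 called 4429 genes higher and 4504 lower, limma-voom 4389 and 4848, and scaling to library totals 4578 and 4440. A filter of at least 10 CPM in 2 libraries left 8050 genes, of which 2761 were higher and 2897 lower. With the scaling factors computed again from those genes, log2 fold changes moved by a median of -0.32. Which scaling suits these libraries best was not tested. Testing for a fold above 2 called 1768 higher and 2841 lower, 29.1% of genes instead of 58.5%, with 38.4% of the calls higher instead of 48.0%. Leaving out a library gave 3367 to 4404 higher and 3723 to 4853 lower, and 44.8% to 58.5% called, lowest without GV 2. The length offset gave 4860 and 4240, with 4013 and 3949 genes shared with the calls as reported, and moved log2 fold changes by a median of 0.15. Of 507 named genes called, 451 kept the call under every setting that tested them, except the fold above 2. Genes that the 10 CPM filter left untested were not counted as losing the call. Among named genes it did test, that filter ended 19 calls, among them WEE2, CCNB1, AURKC, DAZL, DDX4, MOS and CNOT6. The length offset ended 18, among them KHDC3L, AURKB and PDK1.

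The replicate numbers are shared between groups, but no label says that a number marks an animal or a day. Deviations of same-numbered GV and IVO MII libraries correlated at 0.18 over only 2 pairs, so they were not treated as paired. With the replicate block 4345 genes were higher and 4670 lower, 57.0% of those tested.

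With 2 libraries per group, calls of small size in abundant genes, such as those of WEE2, BCL2L10 and RBBP7, ended when a library was left out. Genes near 0.1 CPM lie at the level of 3 counts. Absolute amounts per oocyte were not measured.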

Other observations

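Cyclic AMP signalling holds oocytes in prophase. Of 26 of its genes tested 8 rose (30.8%), near the 28.1% of all genes tested. Another 4 fell (15.4%, against 30.5% of all genes tested). PDE7A, a phosphodiesterase that breaks down cyclic AMP, rose 6.10-fold from 17.6 and 14.9 CPM to 102 and 96.1 CPM, and PDE3A, the phosphodiesterase known for this role in oocytes, rose 2.82-fold from 17.4 and 10.4 CPM to 40.5 and 37.9 CPM. ADCY3, an adenylate cyclase that makes cyclic AMP, fell 10.4-fold from 176 and 182 CPM to 16.9 and 17.6 CPM, though 31.4% of its exon bases lie in exons of CENPO, which fell 2.87-fold, and counting ignored strand. In the MAP kinase list MAP2K1 rose 2.81-fold from 341 and 303 CPM to 898 and 913 CPM.

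Cholesterol genes split within the pathway, with 12 of 29 higher (41.4%) and 10 lower (34.5%, near the 30.5% of all genes tested). DHCR7, the last enzyme of the synthesis, rose 4.36-fold from 61.2 and 98.9 CPM to 257 and 442 CPM, while NSDHL fell 8.33-fold (log2 -3.06, and -3.68 without IVO MII 1) and FDPS 14.9-fold from 10.01 and 15.01 CPM to 0.927 and 0.747 CPM. Among autophagy genes 12 of 37 rose and 12 fell (7 without GV 2), 32.4% each way and near the 28.1% and 30.5% of all genes tested. MAP1LC3B, which coats the autophagosome, rose 4.21-fold from 102 and 112 CPM to 432 and 469 CPM, while ATG7, which activates it, fell 9.51-fold from 542 and 543 CPM to 63.2 and 51.0 CPM. In the cell death list the pro-apoptotic BCL2L11 rose 6.18-fold, and DIABLO fell 10.01-fold from 518 and 497 CPM to 49.8 and 51.6 CPM. Of 33 tRNA synthetase genes 16 fell and 6 rose, among them RARS, down 7.34-fold, and IARS2, up 3.26-fold. POU5F1, the pluripotency factor, rose 6.64-fold from 2.28 and 4.39 CPM to 15.1 and 29.2 CPM, and OTX2 fell 2.08-fold from 2974 and 2277 CPM to 1133 and 1389 CPM, a call that ended without GV 1 or IVO MII 1.

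By annotation, 30.9% of 12057 protein-coding genes tested rose and 29.4% fell, against 10.04% and 35.7% of 448 lncRNA genes. By chromosome, the median log2 fold change ran from -0.47 on chromosome 10 (22.1% higher, 38.2% lower) to 0.32 on chromosome 17 (36.0% higher, 22.6% lower). Fold change had a Spearman's rho of 0.02 with the GV level across 15815 genes, a description over genes that share libraries. The GV level is part of the fold change, so this value cannot decide whether direction goes with level. By mean level, 6.07% of the lowest 5th of genes rose and 24.5% fell (median log2 -0.71). In the highest 5th, 49.95% rose and 25.99% fell (median log2 0.61). The IVO MII level enters both the mean and the fold change, so these shares are a description too.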
